A study of Homo sapiens with 14 samples.

Results

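The genes described here encode brakes on receptor tyrosine kinase signalling and their transcriptional companions: the Sprouty genes SPRY1, SPRY2 and SPRY4, the SPRED genes SPRED1, SPRED2 and SPRED3, the receptor inhibitors ERRFI1 and LRIG1, and the ETS transcription factors ETV4 and ETV5. They were chosen by name, 10 of the 23040 genes listed, with no rule on measured values, though earlier results of these data were known. Total RNA of Panc-1 and AsPC-1, 2 human cell lines of pancreatic cancer, was sequenced. Cells under serum starvation received angiogenin (ANG, also named hRNase5, a secreted ribonuclease) at 1 µg/ml or epidermal growth factor (EGF) at 50 ng/ml, for 1, 5 or 24 h. Each line also had an untreated mock library, for which the labels give no time. This gave 7 conditions in each line and 1 library per condition, 14 in all, so no value below has a repeat within its line and condition. The labels do not name separate cultures, and p-values reflect the spread among these libraries alone. The ligands were used at 1 dose each and the doses differ, so a difference between EGF and ANG is one between those treatments. Levels are in RPKM, reads per kilobase of transcript per M mapped reads.

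When EGF binds its receptor EGFR, the adaptor GRB2 and the exchange factor SOS load RAS with GTP, and RAF, MEK and ERK kinases are activated in turn. ERK activity raises the transcription of genes whose products then damp the same route. Sprouty proteins act near the receptor and RAS, SPRED proteins act on RAS and RAF, with SPRED1 recruiting the RAS inactivator NF1, ERRFI1 (also called MIG6) binds the kinase domain of EGFR, and LRIG1 is a membrane protein that promotes the loss of EGFR family receptors. ETV4 and ETV5 are transcription factors of the PEA3 group that are made downstream of ERK, and they mark the output of the route rather than a brake on it.

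The value of a single read gave a depth of 11.2 to 16.9 M reads for the Panc-1 libraries and 18.9 to 23.9 M for AsPC-1, so that a read in a 2 kb transcript adds 0.0209 to 0.0446 RPKM. The epithelial markers KRT8, KRT18 and KRT19 were at 250 RPKM or more in every library. EPCAM was far lower in Panc-1 (4.88 to 5.58 RPKM) than in AsPC-1 (149 to 230). KRT7, also epithelial, was lower in Panc-1 (2.82 to 4.16 against 4.55 to 15.7 RPKM). So was CDH1 (5.86 to 13.45 against 21.3 to 89.3 RPKM). The mesenchymal marker CDH2 was at 18.3 RPKM or more in Panc-1 and at most 0.11 in AsPC-1. VIM, another such marker, was high in both lines (Panc-1 2044 to 2755 RPKM, AsPC-1 1269 to 1798). For ZEB1, also mesenchymal, the ranges overlapped (Panc-1 6.70 to 9.49 RPKM, AsPC-1 6.10 to 11.2). Of markers of other cell types, PTPRC, CD3E, PECAM1, CDH5, KDR, COL1A2 and PDGFRB were at 0 to 0.37 RPKM, COL1A1 at 0.71 or less and COL3A1 at 0.38 or less, while the immune marker CD68 was at 28.4 to 92.9 RPKM. The early libraries (1 and 5 h) of either line separated from mock and 24 h. The summed level of 20 G2/M genes, which serve cell division, was 1206 to 1444 RPKM at 1 and 5 h in Panc-1 against 423 to 529 RPKM in mock and at 24 h, and 88.0 to 209 against 837 to 1180 RPKM in AsPC-1. The split went in opposite directions in the lines, and since mock sits with 24 h, every comparison of 1 h or 5 h with mock holds it too.

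The Sprouty genes were present at moderate levels in every library. SPRY4 (hg19, chromosome 5, minus strand, 141689992 to 141704620) was at 13.9 RPKM in Panc-1 mock and at 30.3 RPKM in AsPC-1 mock. With EGF it was at 39.6, 32.6 and 27.9 RPKM after 1, 5 and 24 h in Panc-1 and at 43.5, 40.8 and 57.6 RPKM in AsPC-1. With ANG it was at 9.41, 7.10 and 12.6 RPKM in Panc-1 and at 25.2, 26.2 and 30.1 RPKM in AsPC-1. In each line the 3 EGF libraries were thus the highest, above mock, and the 3 ANG libraries were below mock. At 24 h of ANG the gap was small, with 12.6 against 13.9 RPKM in Panc-1 and 30.1 against 30.3 RPKM in AsPC-1. SPRY2 (chromosome 13, minus strand, 80910112 to 80915086) was at 9.77 RPKM in Panc-1 mock, at 11.1, 9.55 and 10.2 RPKM with ANG and at 21.2, 19.4 and 14.1 RPKM with EGF. In AsPC-1 SPRY2 was highest in mock, at 31.2 RPKM, and at 25.2, 22.6 and 26.1 RPKM with ANG and 19.1, 23.9 and 29.2 RPKM with EGF. The EGF libraries thus lay above the ANG libraries in Panc-1 and on both sides of them in AsPC-1. SPRY1 (chromosome 4, plus strand, 124317956 to 124324909) was at 13.8 RPKM in Panc-1 mock, 13.9, 8.63 and 12.8 RPKM with ANG, and 7.02, 9.81 and 13.1 RPKM with EGF. In AsPC-1 it was at 16.6 RPKM in mock, 12.5, 12.3 and 13.96 RPKM with ANG, and 5.59, 11.7 and 4.81 RPKM with EGF. The lowest SPRY1 level of Panc-1 was thus that of 1 h of EGF, and the 2 lowest of AsPC-1 those of 24 h and 1 h of EGF.

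SPRY4 made up a larger part of the Sprouty transcripts with EGF than with ANG in both lines. Of the summed RPKM of SPRY1, SPRY2 and SPRY4, SPRY4 made up 37.1% in mock, 27.4 to 35.5% with ANG and 50.7 to 58.5% with EGF in Panc-1, and 38.8%, 40.1 to 42.9% and 53.4 to 63.9% in AsPC-1. The share of SPRY1 was 10.3 to 23.7% with EGF and 34.1 to 40.4% with ANG in Panc-1, and 5.25 to 15.3% with EGF and 19.8 to 20.2% with ANG in AsPC-1. The sum itself was 55.2 to 67.8 RPKM with EGF and 25.3 to 37.4 RPKM otherwise in Panc-1, while in AsPC-1 the EGF sums of 68.2 to 91.7 RPKM overlapped the others at 61.1 to 78.0 RPKM. SPRY3, the remaining Sprouty gene, was at 0.11 RPKM or less and was not tested.

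In Panc-1 SPRED1 (chromosome 15, plus strand, 38545052 to 38649450) ran from 8.37 to 13.7 RPKM, and in AsPC-1 from 5.80 to 9.35. SPRED2 (chromosome 2, minus strand, 65537985 to 65659656) ran from 10.4 to 23.6 RPKM in Panc-1, highest with EGF at 1 and 5 h (20.7 and 23.6 RPKM), and at 8.89 to 18.2 RPKM in AsPC-1, highest in mock and at 24 h (18.1 to 18.2 RPKM). SPRED3 (chromosome 19, plus strand, 38880939 to 38886871) was at 0.03 to 0.57 RPKM, below the level required for testing, and is given by these values alone. ERRFI1 (chromosome 1, minus strand, 8071779 to 8086393) was the most abundant of the 10 by median in both lines, with a median of 602 RPKM (397 to 868) in Panc-1 and 43.1 RPKM (21.6 to 175) in AsPC-1. LRIG1 (chromosome 3, minus strand, 66429221 to 66550845) was low, between 1.43 and 2.36 RPKM in Panc-1 and between 0.54 and 1.45 in AsPC-1, where the pseudocount of 1 shrinks its differences. ETV5 (chromosome 3, minus strand, 185764106 to 185826901) was at 35.4 to 58.8 RPKM in all 7 Panc-1 libraries, but ran from 1.60 to 30.4 RPKM in AsPC-1. ETV4 (chromosome 17, minus strand, 41605211 to 41623762) lay between 3.14 and 6.64 RPKM in Panc-1, and ran from 3.69 to 42.8 RPKM in AsPC-1.

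**Figure D1:**
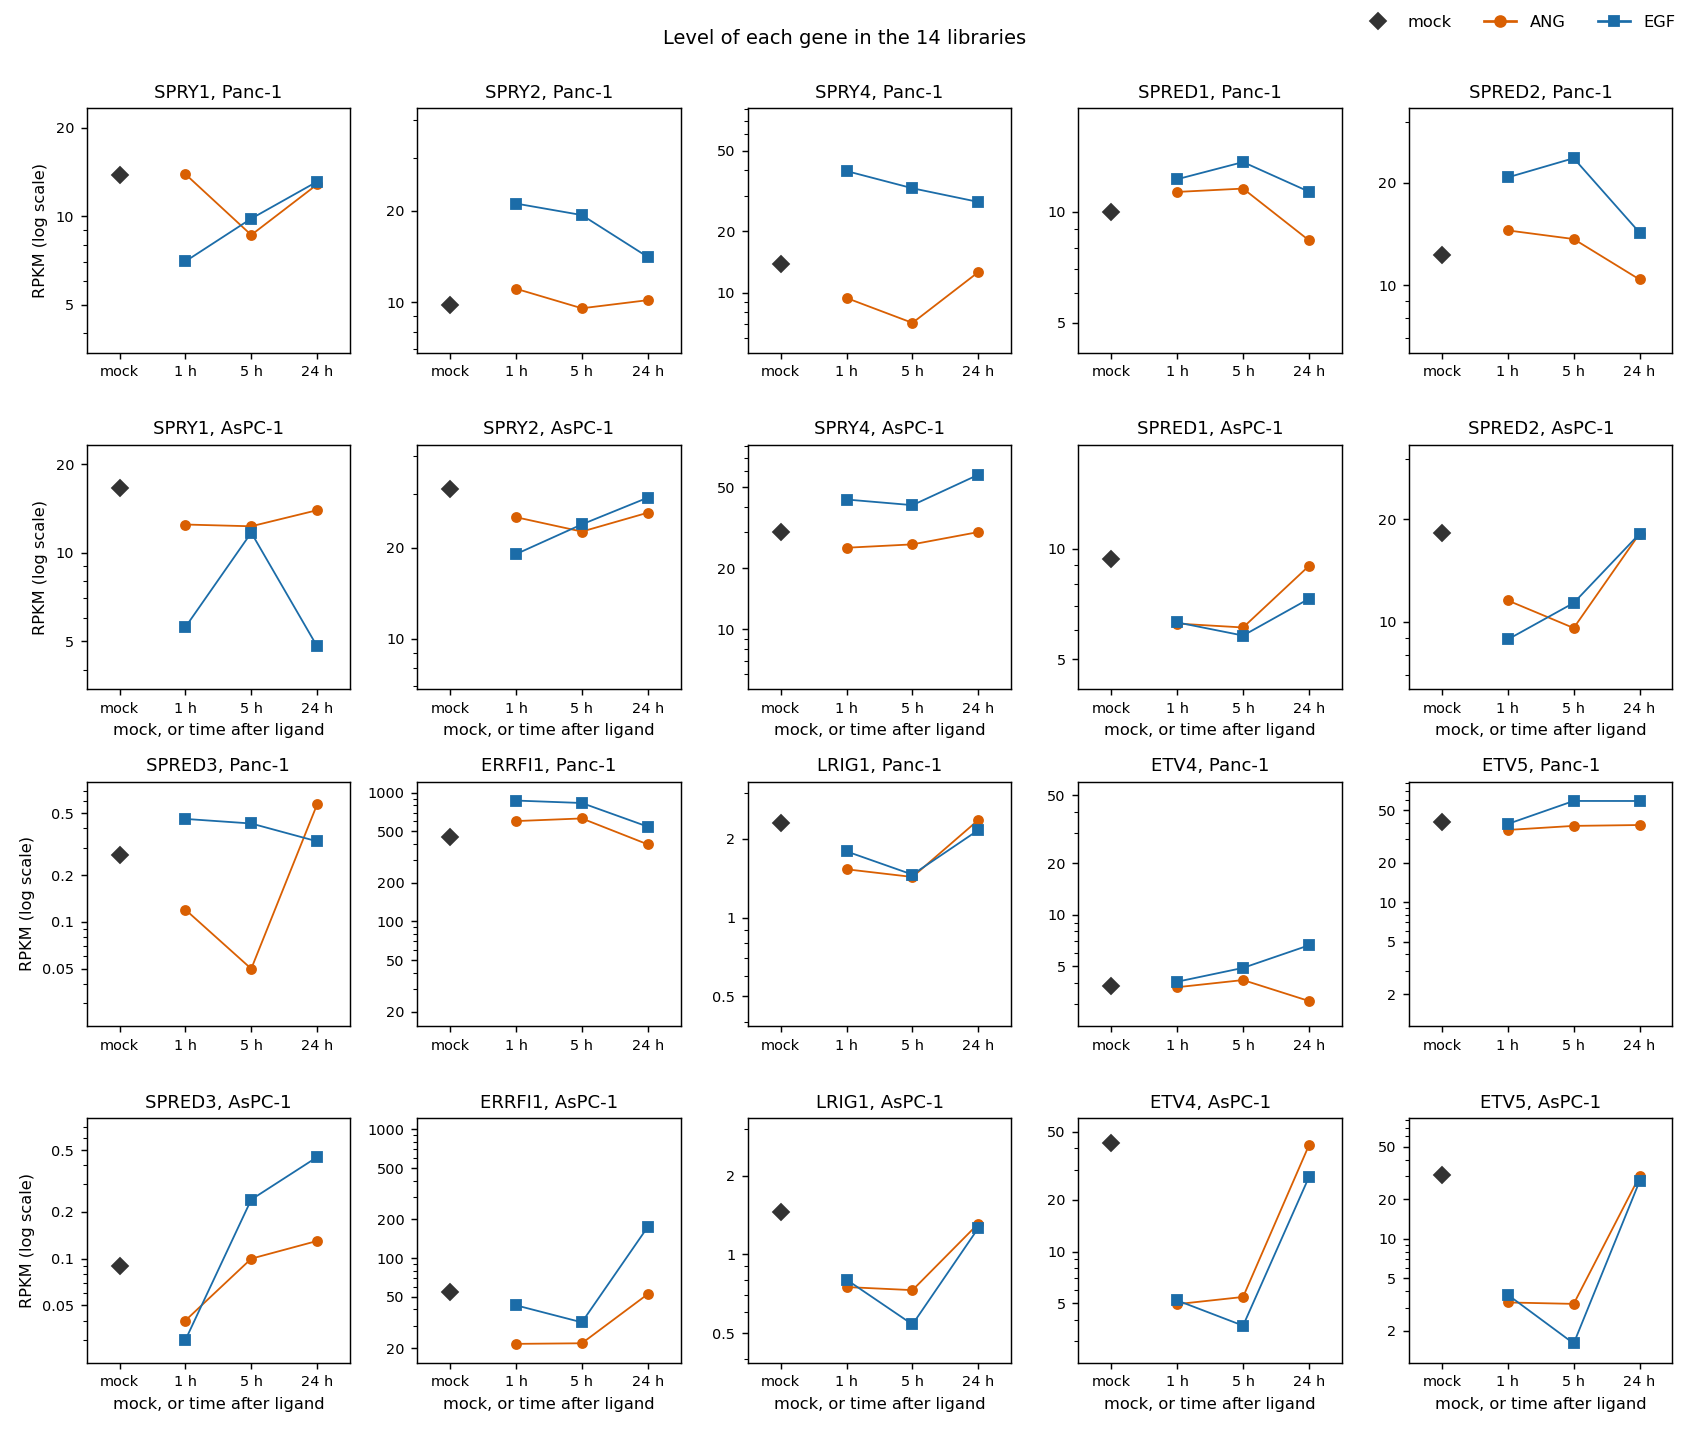
RPKM on a log scale (y axis) of each of the 10 genes in mock and after 1, 5 and 24 h (x axis), with ANG as circles, EGF as squares and mock as a diamond; each point is 1 library and each gene has 1 scale for both lines. SPRY4 has its 3 EGF points on top in both lines, and ETV4 and ETV5 are at 1.60 to 5.43 RPKM at 1 and 5 h of either ligand in AsPC-1, below the other points of that line.

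To ask how far the lines differ, AsPC-1 was compared with Panc-1 within the 7 conditions with limma, a linear model with moderated variances fitted across 13427 genes on log2(RPKM + 1). Differences are on that scale with their SE, p-values carry the Benjamini-Hochberg adjustment over all genes, and the threshold is 0.05. Of the 9 genes tested 7 passed, where 68.8% of all genes did, so most of the set shared the wide divergence of the lines. Lower in AsPC-1 were ERRFI1 (-3.72 ± 0.40, limma adjusted p = 4.1e-05), ETV5 (-2.25 ± 0.52, adjusted p = 0.00459), SPRED1 (-0.59 ± 0.15, adjusted p = 0.00762) and LRIG1 (-0.54 ± 0.06, adjusted p = 8.72e-05), as were 39.6% of all genes. Higher were SPRY4 (0.97 ± 0.19, adjusted p = 0.00171), SPRY2 (0.90 ± 0.20, adjusted p = 0.00377) and ETV4 (1.29 ± 0.49, adjusted p = 0.0432), as were 29.3% of all genes. By median level the order in Panc-1 was ERRFI1, ETV5, SPRED2, SPRY4, SPRY1, SPRED1, SPRY2, ETV4, LRIG1, SPRED3. The ranges of SPRED2, SPRY4, SPRY1, SPRED1 and SPRY2, with medians of 11.1 to 14.3 RPKM, overlapped, and those of the other neighbours did not. In AsPC-1 the order was ERRFI1, SPRY4, SPRY2, SPRY1, SPRED2, SPRED1, ETV4, ETV5, LRIG1, SPRED3, and the ranges of neighbours overlapped except for SPRY2 above SPRY1, ETV5 above LRIG1 and LRIG1 above SPRED3. SPRY1 (-0.09 ± 0.20, adjusted p = 0.698; 0.01 with each library centred on its median) and SPRED2 (-0.18 ± 0.24, adjusted p = 0.521) did not pass. The call for ETV4 was lost without the mock or any 24 h library of either line (adjusted p = 0.0956 to 0.0994), and without the filter on low genes (adjusted p = 0.0978).

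EGF and ANG were then compared within the 6 pairs of the same line and time, which use no mock library. SPRY4 was 4.21-, 4.595- and 2.21-fold higher in RPKM with EGF than with ANG at 1, 5 and 24 h in Panc-1, and 1.73-, 1.56- and 1.91-fold higher in AsPC-1. ERRFI1 was 1.44-, 1.32- and 1.37-fold higher in Panc-1 and 1.99-, 1.45- and 3.32-fold higher in AsPC-1. These 2 genes were higher with EGF in 6 of 6 pairs, as were 5.62% of all genes, and none of the 9 was lower in all 6, as were 4.57%. On the log2(RPKM + 1) scale the mean difference was 1.24 ± 0.20 for SPRY4 (range 0.62 to 2.05) and 0.76 ± 0.17 for ERRFI1 (0.40 to 1.71). Over all genes neither passed, with limma adjusted p = 0.0842 for SPRY4 and 0.125 for ERRFI1. None of the 9 genes passed, where 0.156% of all genes did (21), and at an unadjusted p under 0.05 there were 3 of 9 and 2146 of 13427. For each gene alone, turning the signs of the 6 differences in all 64 ways (an exact two-sided permutation test) gave p = 0.0313 for both, unadjusted, the smallest this test can give. That p is fixed once all 6 differences share a sign, so it adds nothing to the count of pairs.

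Among the other genes SPRY1 was lower with EGF in 4 of 6 pairs (-0.53 ± 0.21, limma adjusted p = 0.279) and SPRY2 higher in 5 of 6 (0.35 ± 0.17, adjusted p = 0.336). The 3 lowest SPRY1 pairs were 1 h in Panc-1 and 1 and 24 h in AsPC-1, at -0.89, -1.03 and -1.36, and its other 3 pairs lay between -0.07 and 0.17. SPRED2 (0.26 ± 0.13, adjusted p = 0.363), SPRED1 (0.07 ± 0.09, adjusted p = 0.715), ETV5 (0.12 ± 0.16, adjusted p = 0.737), ETV4 (0.03 ± 0.17, adjusted p = 0.952) and LRIG1 (-0.01 ± 0.06, adjusted p = 0.926) had pairs on both sides of 0. For LRIG1 the 95% interval of the difference was -0.16 to 0.13, and for ETV4 -0.37 to 0.42. The signs of the ETV4 and LRIG1 means turned under another scaling or without the 24 h libraries.

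**Figure D2:**
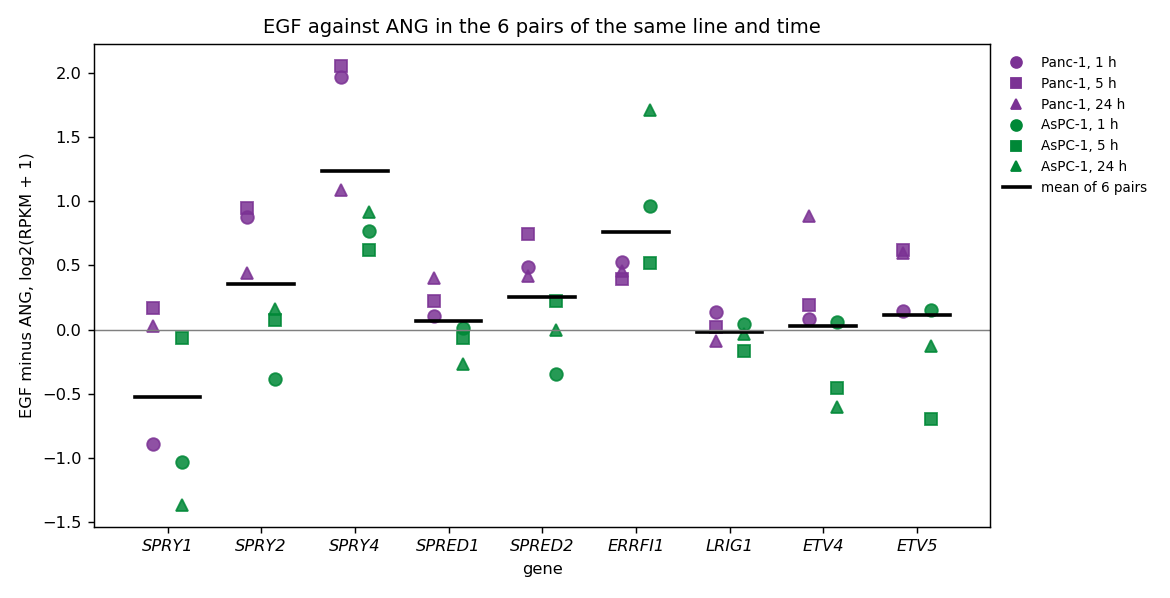
EGF minus ANG on the log2(RPKM + 1) scale (y axis) for the 9 genes tested (x axis); each point is 1 pair of libraries of the same line and time, coloured by line and shaped by time, and the bar is the mean of 6 pairs. SPRY4 and ERRFI1 have all points above 0 (0.62 to 2.05 and 0.40 to 1.71), and every other gene has points on both sides of 0.

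In Panc-1 alone the difference between EGF and ANG was 1.70 ± 0.18 for SPRY4 (limma adjusted p = 0.0696), 0.75 ± 0.14 for SPRY2 (adjusted p = 0.197), 0.55 ± 0.12 for SPRED2 (adjusted p = 0.322) and 0.46 ± 0.19 for ERRFI1 (adjusted p = 0.627). In AsPC-1 it was 1.06 ± 0.19 for ERRFI1 (adjusted p = 0.103), 0.77 ± 0.18 for SPRY4 (adjusted p = 0.12) and -0.82 ± 0.27 for SPRY1 (adjusted p = 0.207). None of the 9 passed in either line, and by limma 0% of all genes did. At an unadjusted p under 0.05 there were 6 of the 9 genes and 1064 of all 13427 in Panc-1, and 3 of 9 and 2357 of all in AsPC-1. SPRY4 passed in Panc-1 with a pseudocount of 0.1 (1.80, adjusted p = 0.0388) and without either 24 h library of Panc-1 (2.01, adjusted p = 0.00631 without ANG and 0.00639 without EGF). The difference between the lines was -0.94 ± 0.25 for SPRY4 (adjusted p = 0.595), -0.80 ± 0.19 for SPRY2 (adjusted p = 0.516), -0.59 ± 0.17 for SPRED2 (adjusted p = 0.608) and 0.60 ± 0.28 for ERRFI1 (adjusted p = 0.652), and 0% of all genes passed that test (6 of the 9 genes and 1040 of all at an unadjusted p under 0.05). The ligand effect was thus not shown to differ between the lines for any gene of the set.

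By time, SPRY4 differed between EGF and ANG by 1.36 ± 0.37 at 1 h, 1.34 ± 0.37 at 5 h and 1.00 ± 0.37 at 24 h (limma adjusted p = 0.787, 0.80 and 0.377), and ERRFI1 by 0.75 ± 0.28, 0.46 ± 0.28 and 1.08 ± 0.28 (adjusted p = 1, 0.878 and 0.308). SPRY1 differed by -0.96 ± 0.29 at 1 h, 0.05 ± 0.29 at 5 h and -0.67 ± 0.29 at 24 h (adjusted p = 0.949, 0.987 and 0.421). No gene of the set passed at any time, where 0.0745% of all genes passed at 1 h and 0% at 5 h and 24 h, with 478, 782 and 1638 genes at an unadjusted p under 0.05. Without either 24 h library of Panc-1, which leaves AsPC-1 alone at that time with a spread shared over the times, ERRFI1 (1.71, adjusted p = 0.0189 and 0.0186) and SPRY1 (-1.36, adjusted p = 0.0185 and 0.0182) passed at 24 h. Without either 24 h library of AsPC-1 the SPRY1 value at 24 h was 0.03.

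Against mock, the median of all genes was below 0 in each comparison (-0.09 to -0.17), and centring each library on its median moved it to between 0.00 and 0.05, so changes against mock are best read relative to that shift. SPRY4 lay above mock in all 6 EGF libraries, by 1.45, 1.18 and 0.96 in Panc-1 and 0.51, 0.42 and 0.91 in AsPC-1 at 1, 5 and 24 h. It lay below mock in all 6 ANG libraries, by -0.51, -0.88 and -0.13 in Panc-1 and -0.25, -0.20 and -0.01 in AsPC-1. SPRY1 lay below mock in all 6 EGF libraries (-0.07 to -1.60). It was also below mock with ANG (-0.10 to -0.62), except at 1 h in Panc-1 (0.01). The shares of all genes on 1 side of mock in all 6 libraries of a ligand were not counted. In Panc-1 SPRY2 lay above mock by 1.04, 0.92 and 0.49 with EGF. ERRFI1 lay above mock by 1.66 in the AsPC-1 library of 24 h of EGF, where 2.42% of all genes were above by 1 or more on that scale, and by 0.93 and 0.87 at 1 and 5 h of EGF in Panc-1. Above mock by 1 or more on the log2(RPKM + 1) scale in Panc-1 were SPRY4 and SPRY2 at 1 h of EGF (3.37% of all genes) and SPRY4 at 5 h of EGF (3.89%). In RPKM, SPRY4 at 24 h of EGF was also 2.015-fold above mock there. Below mock by 1 or more in AsPC-1 were ETV4 and ETV5 at 1 and 5 h of either ligand. So were ERRFI1 at 1 and 5 h of ANG (-1.29 and -1.28) and SPRY1 at 1 and 24 h of EGF (-1.42 and -1.60). The shares of all genes below mock by as much are not given here.

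In the test over both lines, SPRY4 differed from mock by 0.98 ± 0.35 at 1 h, 0.80 ± 0.35 at 5 h and 0.93 ± 0.35 at 24 h of EGF, with limma adjusted p = 0.209, 0.23 and 0.68. SPRY1 differed by -1.15 ± 0.36 at 1 h of EGF (adjusted p = 0.164), and ERRFI1 by 0.96 ± 0.74 at 24 h of EGF (adjusted p = 0.776), a value that was -0.25 without the AsPC-1 library of that condition. LRIG1 at 5 h of EGF was the single call of the set (-0.54 ± 0.12, adjusted p = 0.0473), where 4.22% of all genes passed and 3.63% passed as lower. LRIG1 was at 2.29 and 1.45 RPKM in the mock libraries of Panc-1 and AsPC-1 and at 1.46 and 0.54 RPKM at 5 h of EGF. That call was lost with any of the 14 libraries left out, with a pseudocount of 0.1, under both other scalings and without the 24 h libraries, and calls over all genes were 14.1% higher as deposited and 43.1% higher after centring. None of the 9 genes passed in the other 5 comparisons, where limma called 0.663% of all genes at 1 h of EGF, 0% at 24 h of EGF, 0.0819%, 0.112% and 0% at 1, 5 and 24 h of ANG. At an unadjusted p under 0.05 the set had 3, 1, 1, 1 and 0 genes there, and all genes numbered 2310, 961, 2062, 2391 and 202. The fit gave both lines the same difference from mock, so the difference between the lines entered its spread. The 95% interval of ETV5 at 1 h of ANG was -3.79 to 0.71. Genes that moved differently in the lines could therefore hardly be called against mock.

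**Figure D3:**
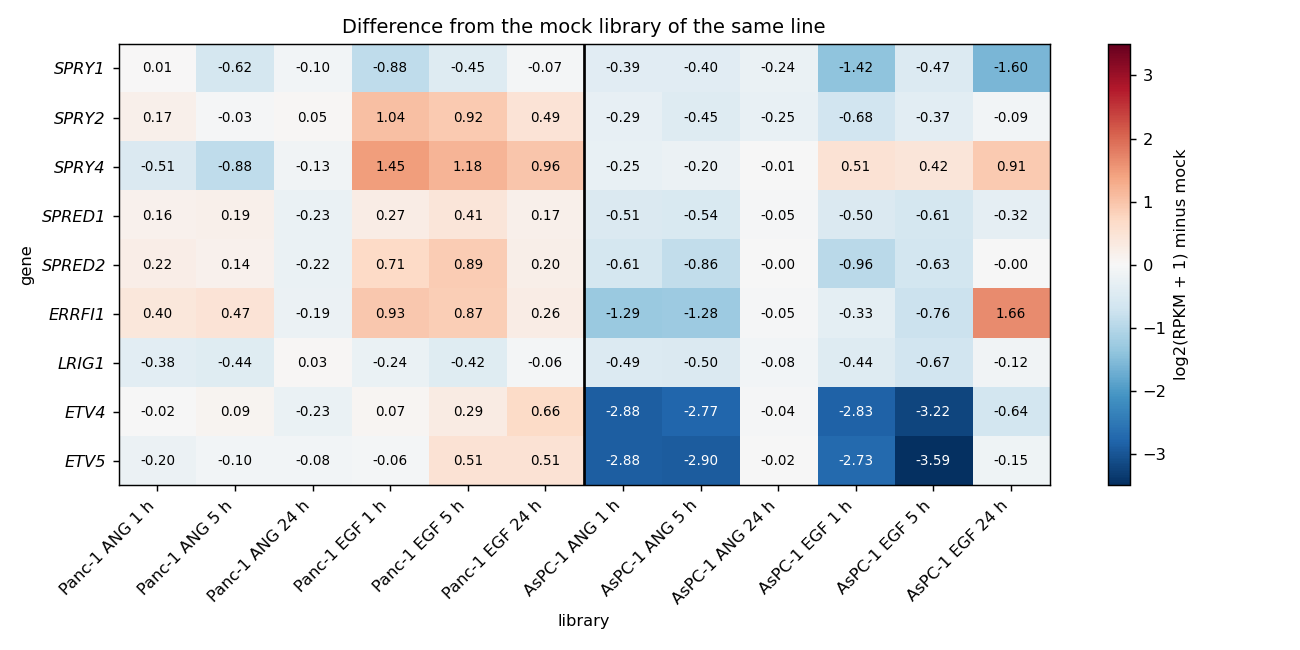
Difference of log2(RPKM + 1) from the mock library of the same line, with 1 row per gene and 1 column per treated library, blue for lower and red for higher; Panc-1 is left of the line and AsPC-1 right of it. SPRY4 is above mock in all 6 EGF columns (0.42 to 1.45), and ETV4 and ETV5 are at -2.73 to -3.59 in the 1 h and 5 h columns of AsPC-1.

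Over time, the largest differences of the set were those of ETV4 and ETV5 in AsPC-1. ETV5 in AsPC-1 was at 30.4 RPKM in mock, 3.28 and 3.20 RPKM at 1 and 5 h of ANG, 3.75 and 1.60 RPKM at 1 and 5 h of EGF, and 29.9 and 27.3 RPKM at 24 h of ANG and EGF. ETV4 followed the same course, with 42.8 RPKM in mock, 4.93 and 5.43 RPKM at 1 and 5 h of ANG, 5.18 and 3.69 RPKM at 1 and 5 h of EGF, and 41.7 and 27.2 RPKM at 24 h. The 4 early libraries thus lay far below the other 3 for both transcription factors. In Panc-1 ETV5 was at 40.9 RPKM in mock, 35.4, 38.0 and 38.6 RPKM with ANG and 39.3, 58.8 and 58.7 RPKM with EGF, with no such dip. ERRFI1 in AsPC-1 was at 54.5 RPKM in mock, 21.6, 21.9 and 52.6 RPKM with ANG and 43.1, 31.8 and 175 RPKM with EGF, so 24 h of EGF was highest and all early libraries were below mock. In Panc-1 the order was turned, with 454 RPKM in mock, 602, 631 and 397 RPKM with ANG and 868, 831 and 545 RPKM with EGF.

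From the mean of 1 h and 5 h to 24 h, 6 of the 9 genes rose in AsPC-1 and none fell. Of all genes 29.8% rose and 49.2% passed in either direction. In this fit the ANG and EGF courses of a line served as the repeat of each other. ETV5 rose by 2.94 ± 0.17 (limma adjusted p = 4.11e-05), ETV4 by 2.59 ± 0.19 (adjusted p = 7.48e-05), ERRFI1 by 1.72 ± 0.21 (adjusted p = 0.000482), SPRED2 by 0.76 ± 0.13 (adjusted p = 0.00205), LRIG1 by 0.42 ± 0.10 (adjusted p = 0.00879) and SPRED1 by 0.36 ± 0.10 (adjusted p = 0.0198). The Sprouty genes did not pass, with SPRY4 at 0.33 ± 0.19 (adjusted p = 0.185), SPRY2 at 0.28 ± 0.14 (adjusted p = 0.148) and SPRY1 at -0.25 ± 0.29 (adjusted p = 0.534). After centring, SPRED1 and LRIG1 no longer passed (adjusted p = 0.0699 and 0.0586), and 44.9% of the calls over all genes were higher, against 60.6% as deposited. SPRED1 was also lost without the ANG library of 1 h or 24 h of AsPC-1 (adjusted p = 0.0626 and 0.184). SPRY2 passed without AsPC-1 at 1 h of ANG (adjusted p = 0.0467), and SPRY4 without either 24 h library of Panc-1 (adjusted p = 0.0221 and 0.0223). Over the same contrast 20 of 20 G2/M genes rose, with a median of 2.79, and their part in these changes was not tested. Because the libraries are bulk RNA, fewer cells of a state and less RNA per cell cannot be told apart. For 7 of the 9 genes every early AsPC-1 library was below mock and 24 h (all but SPRY1 and SPRY4), as for 31.5% of all genes.

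In Panc-1 over the same contrast SPRED2 fell by 0.50 ± 0.13 (limma adjusted p = 0.021) and LRIG1 rose by 0.35 ± 0.10 (adjusted p = 0.0287), where 33% of all genes passed, 16% as higher and 17% as lower. ERRFI1 (-0.64 ± 0.21, adjusted p = 0.0501) and SPRED1 (-0.29 ± 0.10, adjusted p = 0.0565) lay at the edge of the threshold, while SPRY1 (0.40 ± 0.29), SPRY2 (-0.25 ± 0.14), ETV5 (0.18 ± 0.17), SPRY4 (0.11 ± 0.19) and ETV4 (0.11 ± 0.19) did not pass (adjusted p = 0.213 to 0.703). Of the G2/M genes 20 of 20 fell here, with a median of -1.48, and their part was not tested. All 1 h and 5 h libraries lay above mock and 24 h for ERRFI1, as for 20.9% of all genes, and below them for LRIG1, as for 25.4%. These Panc-1 calls depended on single libraries. Without ANG or EGF at 24 h, ANG at 1 h or EGF at 5 h in Panc-1 SPRED2 and LRIG1 were both lost (adjusted p = 0.0682 to 0.23), without ANG at 5 h LRIG1 was lost (adjusted p = 0.0701) and without EGF at 1 h SPRED2 was lost (adjusted p = 0.0592). LRIG1 was also lost with a pseudocount of 0.1 (adjusted p = 0.0612) and SPRED2 without the filter on low genes (adjusted p = 0.0751). SPRED1 passed after centring (adjusted p = 0.0374) and ERRFI1 with the filter of 7 libraries (adjusted p = 0.0453). ERRFI1 also passed without any single 5 h or 24 h library of AsPC-1 (adjusted p = 0.00535 to 0.0202) and SPRED1 without either 24 h library of AsPC-1 (adjusted p = 0.0393 and 0.0394). SPRY4 passed as higher (0.57, adjusted p = 0.0331) without the Panc-1 library of 24 h of EGF.

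The lines differed in this change over time, by a direct test, for 5 of the 9 genes, where 43.6% of all genes passed and 25.5% as higher in AsPC-1 (58.5% of the calls, against 42.5% after centring). AsPC-1 exceeded Panc-1 by 2.76 ± 0.25 for ETV5 (limma adjusted p = 0.000181), 2.48 ± 0.27 for ETV4 (adjusted p = 0.000458), 2.36 ± 0.29 for ERRFI1 (adjusted p = 0.000763), 1.26 ± 0.18 for SPRED2 (adjusted p = 0.00137) and 0.65 ± 0.14 for SPRED1 (adjusted p = 0.00829). The difference was 0.53 ± 0.20 for SPRY2 (adjusted p = 0.0686), 0.22 ± 0.26 for SPRY4 (adjusted p = 0.525), -0.65 ± 0.41 for SPRY1 (adjusted p = 0.238) and 0.07 ± 0.14 for LRIG1 (adjusted p = 0.702; -0.09 after centring). The 20 G2/M genes differed by a median of 4.27 in the same direction, and their part was not tested. Without the Panc-1 library of 24 h of ANG, SPRED1 was lost (adjusted p = 0.0603) and SPRY2 and SPRY4 passed (adjusted p = 0.0442 and 0.0204), and without AsPC-1 at 1 h of ANG SPRY2 passed (adjusted p = 0.0265). Whether the change over time differed between EGF and ANG was tested as well, and by limma none of the 9 genes passed and 0% of all genes did (144 unadjusted). That fit gave both lines the same change over time, so the difference between the lines entered its spread. The 95% intervals were wide there, at -2.61 to 2.97 for ETV5 and -1.86 to 2.83 for ERRFI1. The test could therefore hardly call a difference between the ligands.

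**Figure D4:**
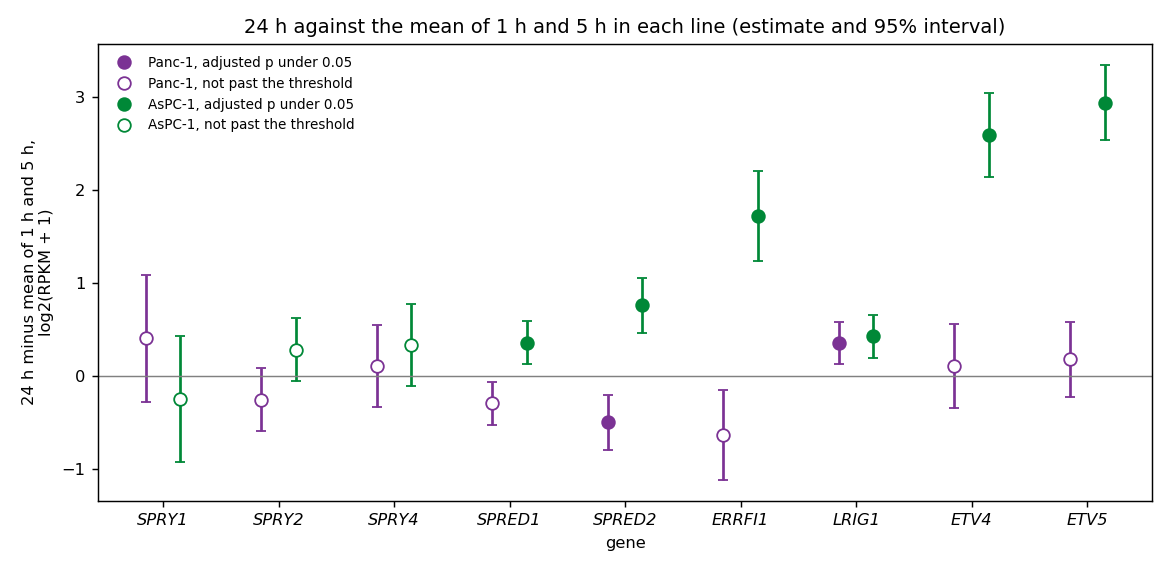
Difference between 24 h and the mean of 1 h and 5 h on the log2(RPKM + 1) scale (y axis) for the 9 genes tested (x axis) in Panc-1 and AsPC-1, with the 95% interval of the limma fit; filled points have an adjusted p under 0.05. ERRFI1 and SPRED2 lie on opposite sides of 0 in the lines (-0.64 and 1.72, -0.50 and 0.76), and LRIG1 lies above 0 in both.

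Over both lines together, LRIG1 was the only gene of the set to pass in a comparison of times. From 5 h to 24 h it rose by 0.45 ± 0.08 (limma adjusted p = 0.0185), where 9.85% of all genes passed and 6.39% rose (64.9% of the calls, against 44.4% after centring), and from 1 h to 24 h the difference was 0.33 ± 0.08 (adjusted p = 0.0547), where 6.36% passed. The RPKM of LRIG1 at 5 h was 1.43 and 1.46 in Panc-1 and 0.73 and 0.54 in AsPC-1 with ANG and EGF, and at 24 h it was 2.36 and 2.16 in Panc-1 and 1.31 and 1.26 in AsPC-1. The 4 libraries of 24 h thus lay above the 5 h library of their own course. The call was lost without any single 5 h library (adjusted p = 0.057 to 0.0679). From 5 h to 24 h the differences of ETV5 (1.59 ± 0.58, limma adjusted p = 0.117) and ETV4 (1.34 ± 0.52, adjusted p = 0.131) were larger but did not pass. Between 1 h and 5 h limma called none of the 9 genes and 0% of all genes (149 unadjusted). These comparisons gave both lines the same change over time, so the difference between the lines entered their spread. For ETV5 the SE was 0.58 from 5 h to 24 h, against 0.17 for the change to 24 h in AsPC-1 alone. A gene that moved differently in the lines could therefore hardly be called here.

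The genes whose course was most like that of 4 of the set were found by Pearson's r of log2(RPKM + 1), centred within each line, over the 14 libraries and among 9850 genes. The points share the split of early and other libraries, so these values are descriptions. Most like SPRY4 were VPS37B (0.92), FERMT2 (0.84), IER3 (0.82), ELL (0.82) and PLAUR (0.81). IER3 is an early response gene and PLAUR encodes the urokinase receptor. Most like ERRFI1 were SLC1A5 (0.98), a glutamine transporter, ERN1 (0.95), DLC1 (0.95), FHL2 (0.95) and PSMD13 (0.95). Most like LRIG1 were RGL2, TIAF1, FADS2, MINK1 and FDFT1 (all 0.97), of which FADS2 and FDFT1 are enzymes of fatty acid desaturation and sterol synthesis. Most like ETV5 were HNF4A (0.99), ETV4, HIST1H3F, GCNT3 and MYO1A (all 0.98).

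Other genes of the route were counted in the same fits. Of 20 genes from the receptor to ERK, 0 passed between EGF and ANG, with a median of 0.02, and of 20 other brakes on receptor and RAS 0 passed, with a median of 0.05, beside -0.02 over all genes and 0.12 over the 9 genes described here. Of 15 other ERK output genes 4 rose and 0 fell, with a median of 0.57, where 0.156% of all genes passed (21). The 4 largest differences of that list were EGR1, an early zinc finger factor (1.64, limma adjusted p = 0.169), HBEGF, an EGFR ligand (0.99, adjusted p = 0.0382), FOSL1, a member of AP-1 (0.91, adjusted p = 0.0192), and PHLDA2 (0.84, adjusted p = 0.0192). At 1 h EGR1 differed by 3.35 (limma adjusted p = 0.0211), the single call of the list there, where 0.0745% of all genes passed. From 1 and 5 h to 24 h in AsPC-1, 7 of the 20 route genes rose and 2 fell, where 29.8% of all genes rose and 49.2% passed in either direction, among them ERBB3 (1.94, adjusted p = 0.000172), ERBB2 (1.54, adjusted p = 0.000512), SOS2 (1.51, adjusted p = 4.19e-05) and EGFR (0.68, adjusted p = 0.000358). Of the other brakes 3 rose and 4 fell, with RASAL2, a RAS inactivator, at -0.76 (adjusted p = 0.00424) and RNF41, a ubiquitin ligase of ERBB3, at 0.67 (adjusted p = 0.00227). Of the ERK outputs 4 rose and 7 fell, with ETV1, the third PEA3 factor, at 2.54 (adjusted p = 5.34e-05), and PHLDA2 (-2.21, adjusted p = 3.91e-05), FOSL1 (-1.97, adjusted p = 7.37e-05) and CCND1 (-1.79, adjusted p = 2.85e-05) opposite to it. ETV1 in AsPC-1 was at 24.5 RPKM in mock, 1.02 to 2.12 RPKM at 1 and 5 h, and 19.96 and 9.37 RPKM at 24 h of ANG and EGF, so the early libraries of all 3 PEA3 genes lay below the rest there.

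The promoters of SPRY4 and ERRFI1 are shown because these were the 2 genes higher with EGF in all pairs. The sequences are those of RefSeq on GRCh38.p14, 250 bases before the start of the transcript read 5′ to 3′ on the minus strand, with matches to any of 4 searched motifs in capitals. SPRY4 lies at chr5:142324248-142324497 and ERRFI1 at chr1:8026310-8026559.
SPRY4: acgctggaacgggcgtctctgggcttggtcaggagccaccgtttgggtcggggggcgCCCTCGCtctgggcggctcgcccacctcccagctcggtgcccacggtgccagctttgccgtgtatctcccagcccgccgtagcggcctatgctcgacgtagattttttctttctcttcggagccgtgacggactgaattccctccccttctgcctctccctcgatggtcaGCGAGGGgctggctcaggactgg
ERRFI1: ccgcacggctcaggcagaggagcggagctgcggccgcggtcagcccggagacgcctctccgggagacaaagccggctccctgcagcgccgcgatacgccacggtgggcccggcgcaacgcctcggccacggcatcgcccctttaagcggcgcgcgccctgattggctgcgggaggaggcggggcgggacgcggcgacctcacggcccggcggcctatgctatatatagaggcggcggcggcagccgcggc
The motifs were CCGGAAG for ETS factors, TGANTCA for AP-1, GCGNGGG for EGR factors and the CArG box of serum response factor, searched on both strands in the 300 bases around each start. They are held by 10.3%, 7.71%, 34.2% and 1.29% of 35116 promoters of that length. SPRY4 held 2 EGR matches, at -193 to -187 and -23 to -17 from the start, and ERRFI1 none of the 4 motifs in this window. Of 16 starts of the 8 genes in the table, 7 starts of 6 genes held an EGR match, 3 starts of 3 genes an AP-1 match, 1 start an ETS match and 0 a CArG box. ETV4 and ETV5 had no entry. A match is a run of letters and was not measured as a site.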

How the data were processed

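Total RNA was extracted with TRIzol per the labels' protocols, and 1 library per line and condition was sequenced. The deposited values are log2 RPKM that the authors computed, per the file headers, for 23040 genes. The submitters' processing notes name hg19. Aligner, counting tool, annotation and strand use: not given in the sources used here. Log2 values were turned back to RPKM, and the lowest, -8.966, was read as 0. Values came in steps of 0.01 RPKM (95.8% of those under 5 RPKM, tolerance 0.1 of a step). Genes spanning under 400 bp took 5.06 to 17.1% of reads.

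In R 4.3.3, limma 3.58.1 with a variance trend was run on log2(RPKM + 1), a pseudocount that understates changes of low genes, for the 13427 genes that reached 1 RPKM in 2 or more libraries (9 of the 10), with Benjamini-Hochberg adjustment. Additive terms were line and condition (mock), pair of line and time (ligand) or course of line and ligand (time). The procedure was tested on simulated data. The named genes are all 10, up to 4 of each other list by the largest difference and the 5 most alike. SPRY3, KRT7 and CDH1 were named outside this rule, after their values were seen. The genes and lists were chosen with earlier results of these data known. Alternatives were the pseudocount, filters, scaling, the trend and leaving out each library. Rescaling without short genes weighted each RPKM by the genomic span of its gene, introns included, so its factor is not a count of reads. The separate values per line and the fit without the 24 h libraries were added after seeing the data.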

Additional observations from a re-analysis of the deposited data

Results flagged for a closer look

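The change from the mean of 1 h and 5 h to 24 h differed between AsPC-1 and Panc-1 for 5 of the 9 genes. This was a test of the difference itself, in which 43.6% of all genes passed, 25.5% as higher in AsPC-1. On the log2(RPKM + 1) scale AsPC-1 exceeded Panc-1 by 2.76 for ETV5, 2.48 for ETV4, 2.36 for ERRFI1, 1.26 for SPRED2 and 0.65 for SPRED1. For ERRFI1 the 4 early libraries lay above the other 3 in Panc-1, as for 20.9% of all genes. They lay below the other 3 in AsPC-1, as for 31.5% of all genes.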

How the results depend on the processing

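Of 22 values of the set past the threshold, none turned sign in 441 alternative fits and 46 fits lost the call. Of 167 values not past it, 84 turned sign at least once and none of those turned values passed. The count for 5 h of EGF against mock went from 1 to 0 with a pseudocount of 0.1, after centring, after rescaling without short genes, without the 24 h libraries (added after seeing the data) and without any 1 library. That for EGF against ANG in Panc-1 went from 0 to 1 with a pseudocount of 0.1 and was 0 to 1 with 1 library left out, and that at 24 h was 0 to 2. For 24 h against 1 h it went from 0 to 1 (LRIG1) without a filter and with one of 7 libraries, and for 24 h against 5 h it was 0 to 2. For 24 h against the mean of 1 h and 5 h in Panc-1 it went from 2 to 1 with a pseudocount of 0.1 and without a filter and to 3 after centring (SPRED1 gained) and with the filter of 7 libraries (ERRFI1 gained), and was 0 to 4 with 1 library left out. Centring turned the uncalled values of LRIG1 for EGF against ANG (0.0022), LRIG1 for the difference in time between the lines (-0.087) and SPRY1 between the lines (0.014). Rescaling turned ETV4 for EGF against ANG (-0.00546), SPRY1 at 5 h (-0.020) and LRIG1 for the difference in time (-0.0026). Without the 24 h libraries LRIG1 was 0.0078 and ETV4 -0.029. With 1 library left out, EGF against ANG ran from -0.046 to 0.016 for LRIG1, -0.14 to 0.15 for ETV4, -0.066 to 0.17 for SPRY1 at 5 h and -1.36 to 0.030 for SPRY1 at 24 h. The change to 24 h ran from -0.35 to 0.57 for SPRY4 and -0.26 to 0.48 for ETV4 in Panc-1, -0.66 to 0.16 for SPRY1 in AsPC-1, and between the lines from -0.24 to 0.68 for SPRY4 and -0.014 to 0.15 for LRIG1. SPRY1 between the lines ran from -0.18 to 0.11, and ERRFI1 at 24 h of EGF against mock from -0.25 to 2.18. The cause of these moves was not tested. Over all genes the calls for EGF against ANG (21) ran from 0 to 21 with 1 library left out and otherwise, those for 5 h of EGF against mock (567) from 0 to 462 and 167 to 598, for 24 h against 1 h (854) from 26 to 854, for 24 h against 5 h (1322) from 199 to 1322 and for the change to 24 h in Panc-1 (4434) from 1149 to 5186. The labels give no replicate numbers, so no fit with a replicate block was made, and pairs of EGF and ANG are those of the same line and time. SPRED3 lies near the depth at which a few reads set the value.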
